A study of Rattus norvegicus with 19 samples.

Results

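The transcripts described here mark the vessels and coverings of the rat hippocampus: 40 genes of endothelial cells, mural cells and the fibroblasts of meninges and vessel walls, chosen by name and looked up by symbol among the 32623 genes of each file. Of the 40, 37 were found and 34 had reads, all 34 of which passed the filter on low counts and were tested. By role the list held 16 endothelial genes (12 tested), 8 mural genes (8 tested), the 2 collagen IV chains of vascular basement membrane (2 tested) and 14 fibroblast and meningeal genes (12 tested). *Pecam1*, *Ly6c* and *Abcb1a* were not found by symbol. *Cldn5*, *Col1a2* and *Ogn* were listed at 0 in all 19 libraries, and no level or fold is given for them.

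The libraries came from male Sprague Dawley rats, an outbred strain, of a line in which CRISPR/Cas9 deleted or duplicated the *Sult1a1* to *Spn* segment of chromosome 1, the counterpart of human 16p11.2. Littermates gave 4 groups: wt (n = 6) with 2 copies, Del/+ (n = 4) with 1 copy, Dup/+ (n = 5) with 3 copies, and Del/Dup (n = 4), in which a deleted and a duplicated chromosome together leave 2 copies. Hippocampus was flash frozen and gave 1 library per sample, no treatment is named in the labels, and the age of these adult animals is not given in the sources used here. The alleles were made in fertilised embryos and passed through the germline, with no cell type singled out. The question put to the 40 genes was whether their levels differed between the 4 genotypes.

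The inner wall of a brain vessel is a sheet of endothelial cells, sealed by tight junctions and fitted with transporters that form the blood-brain barrier. Pericytes, on capillaries, and smooth muscle cells, on arterioles, wrap this sheet and together are called mural cells. Both layers are anchored in a basement membrane whose core is type IV collagen. Fibroblasts of the meninges and of the larger vessels lie outside it and make fibrillar collagens and small proteoglycans. In bulk tissue such as this, fewer cells of a type and less RNA per cell cannot be told apart.

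Gene totals ran from 16191192 to 38760645 reads per library, with wt at 25642772 to 38760645 and Dup/+ at 16191192 to 29183777. As a check of the labels, the interval gene *Mapk3* stood at 41.0 to 60.9 CPM (reads of the gene, scaled to a fixed number of reads in the library) in Del/+, 88.5 to 98.4 in wt, 81.2 to 98.5 in Del/Dup and 129 to 154 in Dup/+. The label of wt replicate 5 was in conflict with itself, its genotype field naming Dup/+; its *Mapk3* level of 92.7 CPM lay inside the range of the other wt libraries. Of 10 genes in a list of hippocampal neuron markers 9 were tested and *Fibcd1* was listed at 0 in all 19 libraries. The dentate marker *Prox1* was present in every library but not level between groups: it stood at 136 to 195 CPM in wt and 103 to 135 CPM in Del/+, without overlap (log2 fold change -0.35, edgeR adjusted p = 0.257). Multi-mapped reads, which fit the genome in several places, made up 40.1% to 47.6% in wt and 45.1% to 50.5% in Dup/+, but 57.8% to 70.7% in Del/Dup and 63.9% to 76.3% in Del/+ replicates 1 to 3, with Del/+ replicate 4 at 41.6%. Group and this share therefore cannot be told apart for Del/Dup against wt. The choroid plexus, a secretory tissue of the ventricle next to the hippocampus, was unevenly represented: its marker *Ttr* reached 352 to 1126 CPM in 4 libraries (Del/+ replicate 3, Del/Dup replicates 2 and 4, Dup/+ replicate 2) and 0.921 to 96.3 CPM in the other 15.

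Some of the results below concern genes whose start regions are shared or that were high in the same libraries, and those regions are shown first, from RefSeq on the assembly GRCr8 (the counts themselves were made on Rno6, so no position below is a position of the counted reads). *Col4a1* and *Col4a2* lie next to each other on chromosome 16, with no coding gene between them, and are read in opposite directions from starts that are 76 bases apart. These 76 bases, chr16:84885521-84885596 on the *Col4a1* strand, are printed because both chains are transcribed away from them. Capitals mark GGGCGG, the core of the GC box, here on the opposite strand and so read as CCGCCC.
Col4a1 and Col4a2: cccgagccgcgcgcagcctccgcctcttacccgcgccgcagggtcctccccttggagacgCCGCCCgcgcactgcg

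For the growth factor *Igf2* and its binding protein *Igfbp2*, the 150 bases before each listed start are given on the strand of the gene, because these genes varied most among the members. The *Igf2* windows are chr1:207253981-207254130 and chr1:207250476-207250625 on the minus strand, and the *Igfbp2* window is chr9:81864661-81864810 on the plus strand. Capitals again mark GGGCGG, which the first *Igf2* window did not hold.
Igf2 window 1: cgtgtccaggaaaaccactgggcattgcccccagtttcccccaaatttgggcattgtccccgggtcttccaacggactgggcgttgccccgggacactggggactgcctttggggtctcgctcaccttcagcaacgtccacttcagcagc
Igf2 window 2: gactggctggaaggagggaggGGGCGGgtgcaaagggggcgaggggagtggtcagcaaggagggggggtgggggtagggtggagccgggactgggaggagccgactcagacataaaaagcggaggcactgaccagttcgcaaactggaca
Igfbp2: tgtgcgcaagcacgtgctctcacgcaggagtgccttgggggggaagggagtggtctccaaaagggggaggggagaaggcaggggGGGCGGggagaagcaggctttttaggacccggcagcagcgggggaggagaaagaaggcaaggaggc

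In windows from 250 bases before to 50 bases after the start, searched on both strands, GGGCGG was present in 16 of the 22 windows of 20 tested members and in 33.1% of all 33469 windows of the table. A match is a description of the letters and not evidence of a bound factor. The 40 members lie on 17 chromosomes. Chromosome 1 holds 3 of them and also carries the copy number change: *Igf2*, *Acta2* and *Lama2* are separated from *Spn*, the edge of the interval, by 240, 742 and 2018 coding genes.

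Across the 4 genotypes the summed level of the members moved little. The sum over the 37 genes in the files ranged over 775 to 921 CPM among wt libraries, 827 to 973 among Del/+, 833 to 895 among Dup/+ and 825 to 906 among Del/Dup, so that each carrier group overlapped wt. The highest sum, 973 CPM, was that of Del/+ replicate 3, and the lowest, 775 CPM, that of wt replicate 4. By role, the endothelial sum spanned 405 to 476 CPM over all libraries, the mural sum 167 to 223 CPM, the collagen IV sum 69.2 to 91.2 CPM and the fibroblast and meningeal sum 125 to 255 CPM. The last therefore varied most, 2.03-fold from lowest to highest, against 1.17-fold for the endothelial sum.

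**Figure D1:**
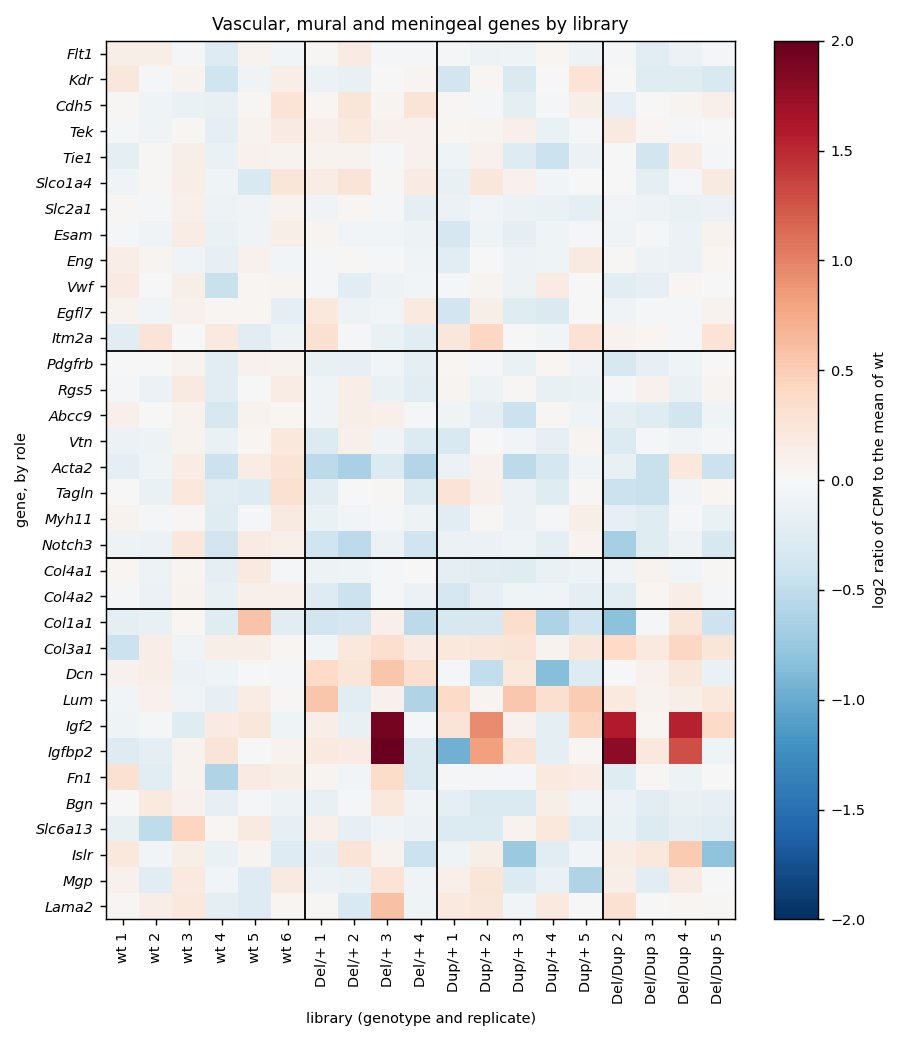
Level of the 34 tested members in each of the 19 libraries, as the log2 ratio of CPM to the mean of the 6 wt libraries (red above, blue below). Rows are grouped by role (endothelial, mural, collagen IV, fibroblast and meningeal) and columns by genotype; the darkest cells are Igf2 and Igfbp2 in Del/+ replicate 3, Del/Dup replicate 2 and Del/Dup replicate 4.

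Against wt, no member was called in Del/+, Dup/+ or Del/Dup at an adjusted p under 0.05 by edgeR, over 15440 genes tested. The background was 0.771% of genes called in Del/+, 0.272% in Dup/+ and 0.0907% in Del/Dup. Before adjustment, p was under 0.05 for 7 of 34 members in Del/+ (18.4% of all genes), 5 of 34 in Dup/+ (8.94% of all genes) and 6 of 34 in Del/Dup (16.2% of all genes). These are 20.6%, 14.7% and 17.6% of the members. DESeq2 called 2 members in Del/+, where it called 3.83% of genes, and 0 in Dup/+ and Del/Dup, where it called 0.518% and 1.19% of genes. The median log2 fold change of the members was -0.016 in Del/+, -0.056 in Dup/+ and -0.036 in Del/Dup, beside 0.00048, -0.0018 and 0.0012 over all genes tested. In each of the 3 comparisons, 28 of 34 members had a 95% interval that lay wholly within 0.5 of 0 on the log2 scale, which is 82.4% beside 75.1%, 79.2% and 74.6% of all genes tested in Del/+, Dup/+ and Del/Dup.

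**Figure D2:**
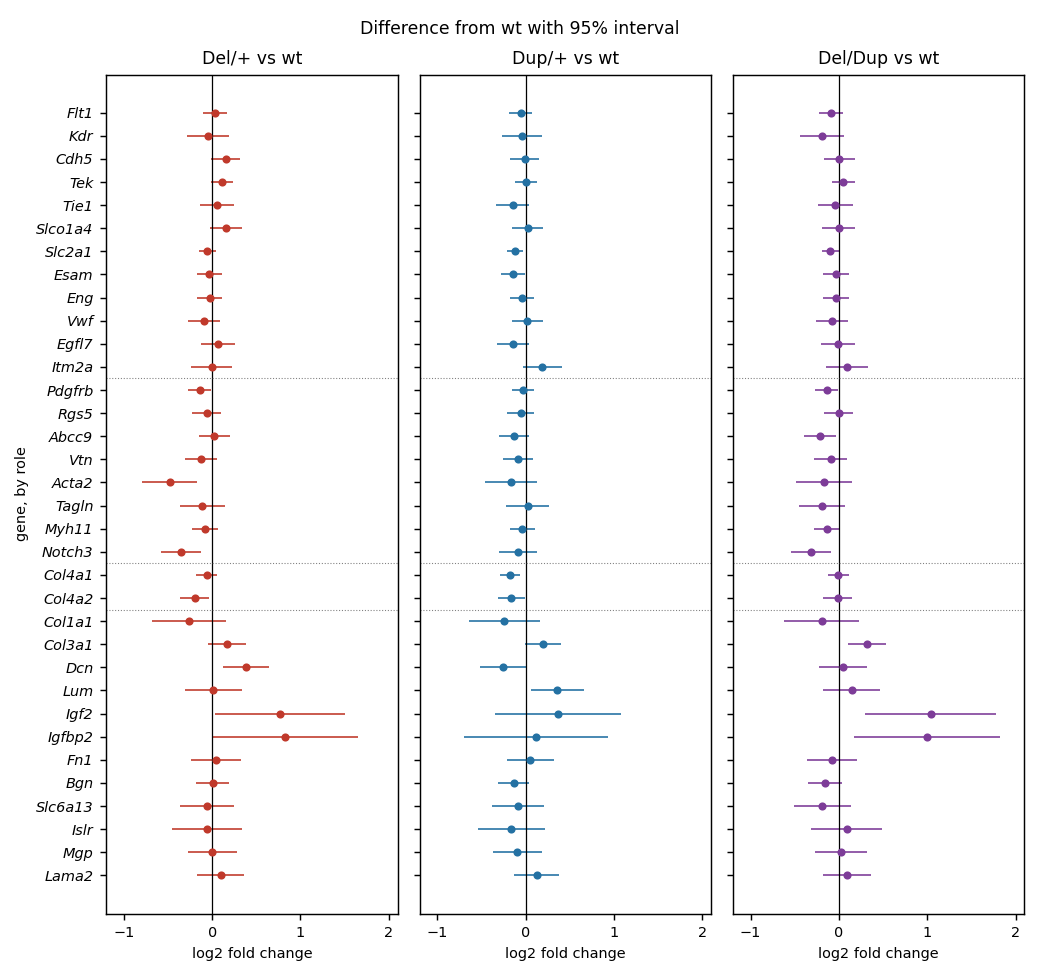
Log2 fold change against wt of the 34 tested members in Del/+ (left), Dup/+ (middle) and Del/Dup (right), with points for the edgeR estimate and bars for its 95% interval. The widest intervals are those of Igf2 and Igfbp2, and most endothelial intervals are narrow and span 0.

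Between the opposite gene doses, Del/+ against Dup/+, 1 member was called (0.784% of all genes were): *Dcn*, higher in Del/+. DESeq2 also called this member alone, and called 1.66% of all genes. At an unadjusted p under 0.05, 4 of 34 members passed (13.5% of all genes), and the median of the members was 0.020 on the log2 scale, beside 0.00072 over all genes. Over the 4 groups jointly 0 members were called by edgeR (0.823% of genes were), 8 passed at an unadjusted p under 0.05 (18.9% of genes) and 1, *Dcn*, was called by DESeq2 (4.6% of genes).

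*Dcn* encodes decorin, a small proteoglycan that fibroblasts lay on collagen fibrils, and was the member with the clearest difference. In wt it stood at 16.6 to 19.7 CPM with a median of 17.8. The Del/+ libraries had 23.7, 21.3, 26.4 and 22.5 CPM, each above every wt library and every Dup/+ library. The Dup/+ libraries had 17.5, 12.8, 20.7, 9.93 and 15.03 CPM, a spread wider than that of wt, and Del/Dup had 18.1, 19.1, 21.0 and 16.3 CPM, overlapping wt. The mean of wt was 18.0 ± 1.23 CPM (SD, n = 6) and that of Del/+ 23.5 ± 2.19 CPM (SD, n = 4). Dup/+ averaged 15.2 ± 4.16 CPM (SD, n = 5) and Del/Dup 18.6 ± 1.94 CPM (SD, n = 4).

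Between Del/+ and Dup/+ the log2 fold change of *Dcn* was 0.64 (SE 0.135, 95% interval 0.36 to 0.92, edgeR adjusted p = 0.0291), a 1.56-fold difference. Against wt it was 0.38 in Del/+ (edgeR adjusted p = 0.121), -0.26 in Dup/+ (0.556) and 0.050 in Del/Dup (0.877), none of which passed. Among members, *Dcn* was the only one whose libraries did not overlap in Del/+ against wt (4.94% of all genes did not overlap) and in Del/+ against Dup/+ (5.3% of all genes). The Del/+ library of low multi-mapped share, replicate 4, had 22.5 CPM against 9.93 to 20.7 in Dup/+ and 16.6 to 19.7 in wt, all of low share. Among libraries of high share, Del/+ had 21.3 to 26.4 CPM and Del/Dup 16.3 to 21.0 CPM. With a term for that share, which leaves replicate 4 as the only Del/+ library that sets the comparison with Dup/+ or wt, the difference between Del/+ and Dup/+ was 0.57 and no longer passed (edgeR adjusted p = 0.295). Nor did it pass without Del/+ replicate 3 (0.58, edgeR adjusted p = 0.0689), Dup/+ replicate 2 (0.59, 0.0875) or Dup/+ replicate 5 (0.64, 0.0691), with only the groups compared (0.64, 0.101), without the 4 libraries highest in *Ttr* (0.53, 0.125) or with the replicate block (0.63, 0.0598). It was called in the other 22 of 29 alternative fits.

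**Figure D3:**
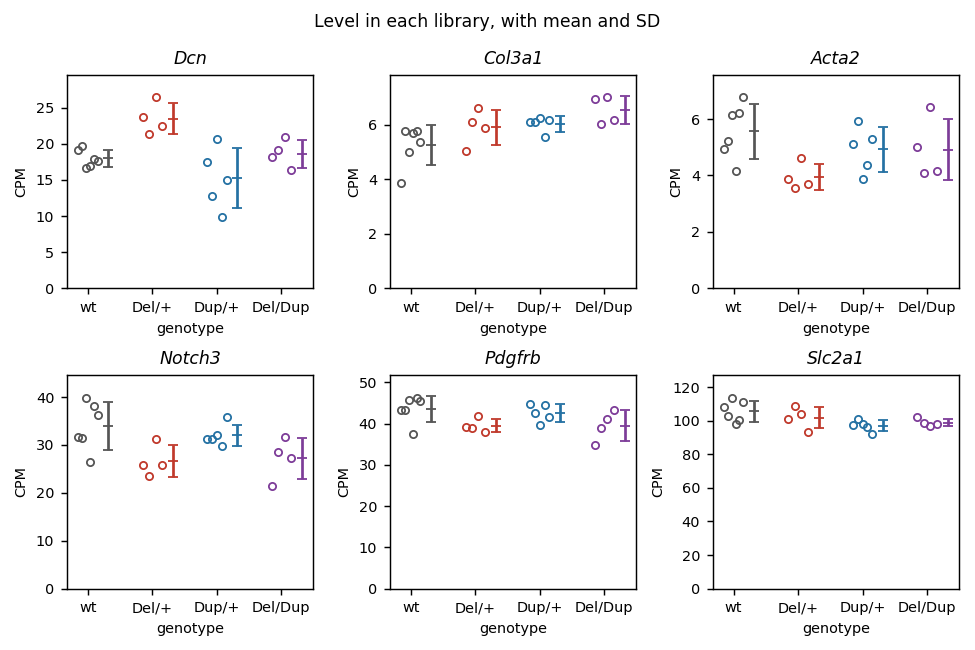
Level in CPM of 6 members in each library (open circles) with the mean and SD of each genotype beside them; wt n = 6, Del/+ n = 4, Dup/+ n = 5, Del/Dup n = 4. Dcn in Del/+ lies above all wt and Dup/+ libraries, Acta2 and Notch3 in Del/+ sit low in the wt range or below it, and Slc2a1 varies little.

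*Lum*, which encodes the proteoglycan lumican, is the coding neighbour of *Dcn* on chromosome 7. Its wt libraries held 3.39 to 4.21 CPM, those of Del/+ 2.50 to 5.57, those of Dup/+ 3.95 to 5.50 and those of Del/Dup 3.98 to 4.39, all overlapping. The log2 difference between Del/+ and Dup/+ was -0.34 (95% interval -0.68 to -0.011, edgeR adjusted p = 0.356), opposite in sign to that of *Dcn*. Against wt *Lum* was at 0.36 in Dup/+ (95% interval 0.058 to 0.66, edgeR adjusted p = 0.48), the one gene of its role with an unadjusted p under 0.05 in that comparison, and at 0.014 in Del/+. *Lum* had at least 76 reads in every library and *Dcn* at least 258.

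*Igf2*, a fetal growth factor that the adult brain makes mainly in meninges and choroid plexus, was high in single libraries rather than in a genotype. Its level was 17.5 to 24.2 CPM in wt with a median of 19.98. Del/+ had 22.6, 18.7, 78.2 and 20.3 CPM, Dup/+ 24.9, 39.9, 22.1, 18.4 and 27.9 CPM, and Del/Dup 61.9, 21.3, 60.1 and 27.2 CPM. Thus 1 Del/+ library, 1 Dup/+ library and 2 Del/Dup libraries stood above all others, which lay at 17.5 to 27.9 CPM.

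*Igfbp2*, a secreted protein that binds insulin-like growth factors, was high in the same 4 libraries. It was at 7.55 to 10.8 CPM in wt with a median of 9.24. Del/+ had 10.3, 10.1, 35.8 and 7.39 CPM, Dup/+ 4.67, 15.9, 11.1, 7.97 and 9.26 CPM, and Del/Dup 31.3, 10.5, 22.0 and 8.54 CPM. The 4 highest libraries, at 15.9 to 35.8 CPM, came in the same order as for *Igf2* and as for *Ttr*, and the other 15 lay at 4.67 to 11.1 CPM.

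The log2 fold change of *Igf2* was 0.76 in Del/+ (95% interval 0.029 to 1.5, edgeR adjusted p = 0.253) and 1.04 in Del/Dup (0.30 to 1.78, adjusted p = 0.191). For *Igfbp2* it was 0.83 in Del/+ (0.0058 to 1.65, adjusted p = 0.268) and 0.998 in Del/Dup (0.17 to 1.83, adjusted p = 0.234). Neither gene was called. Without the 4 libraries highest in *Ttr*, left out after the data had been seen, the values for *Igf2* were -0.0046 in Del/+ and 0.23 in Del/Dup, and those for *Igfbp2* 0.038 and 0.072. Of the choroid plexus list 18 of 19 genes were tested and *Otx2* was listed at 0. Summed over that list, wt libraries held 128 to 193 CPM, Del/+ 149 to 1840, Dup/+ 155 to 692 and Del/Dup 212 to 1745. In Del/+, Dup/+ and Del/Dup, edgeR called none of its genes against wt, while 16, 3 and 15 of them had an unadjusted p under 0.05 and DESeq2 called 8, 1 and 7. Over all genes, 18.4%, 8.94% and 16.2% had an unadjusted p under 0.05, and DESeq2 called 3.83%, 0.518% and 1.19%. Between Del/+ and Dup/+ edgeR called 1 gene of the choroid plexus list (0.784% of all genes were called), *Calml4*, at -0.85 on the log2 scale (adjusted p = 0.0103). That call held in 25 of 29 alternative fits. *Calml4* had the only negative estimate of the 18 there: 17 were positive, with a list median of 1.20. The other 32 tested members overlapped between the 4 libraries highest in *Ttr* and the remaining 15.

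**Figure D4:**
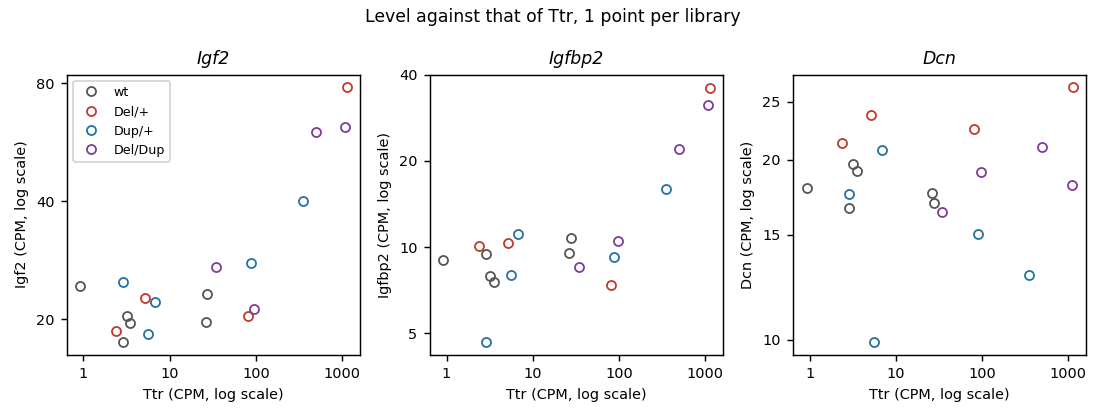
Level of Igf2, Igfbp2 and Dcn against that of the choroid plexus marker Ttr, all in CPM on log axes, with 1 point per library coloured by genotype. The 4 libraries with Ttr at 352 to 1126 CPM are the 4 highest for Igf2 and Igfbp2, while for Dcn they are spread over 12.8 to 26.4 CPM.

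*Col3a1*, a fibrillar collagen chain of vessel walls and meninges, was at 3.88 to 5.79 CPM in wt with a median of 5.55. Del/Dup had 6.96, 6.02, 7.01 and 6.19 CPM, each above every wt library, whereas Del/+ (5.05, 6.11, 6.61 and 5.89 CPM) and Dup/+ (6.11, 6.13, 6.27, 5.54 and 6.17 CPM) overlapped wt. It was the single member whose libraries did not overlap in Del/Dup against wt (2.56% of all genes did not), and in Dup/+ against wt there was none (1.17%). The log2 fold change in Del/Dup was 0.32 (SE 0.105, 95% interval 0.097 to 0.53) and was not called (edgeR adjusted p = 0.182). It was 0.22 without the 4 libraries highest in *Ttr*.

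The other 7 tested fibroblast and meningeal genes were the collagen chain gene *Col1a1*, the matrix glycoprotein gene *Fn1*, the biglycan gene *Bgn*, the GABA transporter gene *Slc6a13*, *Islr*, the calcification inhibitor gene *Mgp* and the laminin chain gene *Lama2*. None of them had an unadjusted p under 0.05 in any comparison. *Col1a1* had the largest SD of log2 CPM within groups among these, 0.35. Its levels ran from 6.82 CPM in Del/Dup replicate 2 to 17.8 CPM in wt replicate 5, and its interval in Del/+ ran from -0.68 to 0.16 on the log2 scale. *Islr* and *Slc6a13* were the most thinly covered members, with as few as 37 and 38 reads in a library. Over the 12 tested genes of this role the median log2 fold change was 0.030 in Del/+, -0.016 in Dup/+ and 0.069 in Del/Dup.

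Of the 8 mural genes, *Acta2* and *Notch3* had the largest differences from wt in Del/+, and neither was called by edgeR. *Acta2* encodes the actin of smooth muscle; reads that fit another actin gene equally well were not counted. It stood at 4.14 to 6.77 CPM in wt with a median of 5.69, and at 3.88, 3.57, 4.63 and 3.71 CPM in Del/+. Of the Del/+ libraries 3 were below the lowest wt library and 1 was within the wt range. Dup/+ had 5.12, 5.92, 3.88, 4.39 and 5.30 CPM and Del/Dup 5.00, 4.08, 6.43 and 4.15 CPM, which overlapped both wt and Del/+.

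*Notch3*, a receptor through which smooth muscle and pericytes receive Notch signals, was at 26.5 to 39.9 CPM in wt with a median of 34.1. In Del/+ it was at 25.7, 23.6, 31.3 and 25.7 CPM and in Del/Dup at 21.5, 28.6, 31.7 and 27.2 CPM, both low against wt with overlap. Dup/+, at 31.2, 31.2, 32.1, 29.7 and 35.8 CPM, lay within the wt range.

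Against wt, the log2 fold change in Del/+ was -0.48 for *Acta2* (SE 0.15, 95% interval -0.80 to -0.17, edgeR adjusted p = 0.106) and -0.35 for *Notch3* (SE 0.109, -0.58 to -0.12, edgeR adjusted p = 0.106), neither of them called. In Del/Dup *Notch3* was at -0.32 (edgeR adjusted p = 0.197) and *Acta2* at -0.17 (0.59). DESeq2 called both genes in Del/+ (-0.49, adjusted p = 0.0462 and -0.35, adjusted p = 0.0434), and edgeR did so without the 4 libraries highest in *Ttr* (-0.56, adjusted p = 0.0493 and -0.43, adjusted p = 0.0402). Neither was called by edgeR in any of the 19 fits that left out 1 library.

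*Pdgfrb*, the receptor through which endothelial PDGF recruits pericytes, was at 37.5 to 46.3 CPM in wt with a median of 44.4. Del/+ had 39.1, 38.9, 41.8 and 38.0 CPM, Dup/+ 44.8, 42.6, 39.6, 44.6 and 41.7 CPM, and Del/Dup 34.7, 38.9, 41.0 and 43.4 CPM. All groups overlapped, and the log2 fold changes of -0.14 in Del/+ and -0.14 in Del/Dup were not called (edgeR adjusted p = 0.226 and 0.28). The lowest wt library, replicate 4, was also the lowest in wt for *Notch3* and *Acta2*.

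*Abcc9*, the regulatory subunit of the potassium channel of pericytes, was at 14.8 to 19.9 CPM in wt with a median of 19.2. Del/Dup had 16.4, 15.7, 14.3 and 17.4 CPM, Dup/+ 17.4, 16.3, 13.8, 18.9 and 17.7 CPM, and Del/+ 17.6, 20.02, 19.8 and 18.1 CPM. The difference of Del/Dup from wt was -0.22 on the log2 scale (SE 0.0866, edgeR adjusted p = 0.233). The other mural genes, *Rgs5*, a regulator of G protein signalling in pericytes, *Vtn*, which encodes vitronectin, and the contractile genes *Tagln* and *Myh11*, had no unadjusted p under 0.05 in any comparison. Negative estimates against wt were found for 7 of the 8 mural genes in Del/+, 7 in Dup/+ and 8 in Del/Dup, with medians of -0.12, -0.070 and -0.15. Over all 15440 genes tested, 7692, 7838 and 7670 estimates were negative. Among 15 further mural genes tested the negative estimates numbered 7, 13 and 10, with medians of 0.011, -0.072 and -0.085. By edgeR none was called, DESeq2 called *Acta2* and *Notch3* in Del/+ alone, and every mural gene overlapped wt in each group. Astrocyte genes had negative estimates for 7 of 8 in Del/+, 7 in Dup/+ and 8 in Del/Dup (medians -0.11, -0.024 and -0.12), and microglia genes for 9 of 9, 7 and 7 (medians -0.15, -0.10 and -0.053), with none called by either tool.

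The 2 chains of collagen IV, read away from the 76 bases shown above, both had estimates below 0 in Dup/+ with an unadjusted p under 0.05, and neither was called. *Col4a1* was at 34.2 to 44.0 CPM in wt with a median of 38.7, and at 34.2, 32.8, 32.5, 35.4 and 36.0 CPM in Dup/+, at the low end of the wt range and below it. Del/+ (35.8, 36.2, 37.4 and 38.5 CPM) and Del/Dup (36.6, 40.6, 37.2 and 39.2 CPM) overlapped wt throughout. *Col4a2* was at 40.1 to 47.6 CPM in wt with a median of 44.8, at 35.1, 39.4, 41.8, 42.2 and 39.2 CPM in Dup/+, at 37.0, 33.0, 42.9 and 40.9 CPM in Del/+ and at 37.9, 45.5, 48.6 and 43.4 CPM in Del/Dup. Every group overlapped wt for this chain.

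In Dup/+ the log2 fold change was -0.18 for *Col4a1* (SE 0.054, 95% interval -0.29 to -0.062, edgeR adjusted p = 0.302) and -0.16 for *Col4a2* (SE 0.0732, -0.32 to -0.010, edgeR adjusted p = 0.528). When wt replicate 5 was placed in Dup/+, as its other label field reads, these became -0.065 and -0.095. In Del/+ the paired chains differed in size, -0.061 for *Col4a1* and -0.20 for *Col4a2*, with overlapping intervals (-0.18 to 0.057 and -0.36 to -0.037). In Del/Dup they were -0.0078 and -0.013.

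Of the endothelial genes none was called in any comparison by edgeR or DESeq2. An unadjusted p under 0.05 was found for 2 of 12 in Dup/+ against wt, beside 8.94% of all genes, for 1 in Del/+ against Dup/+, beside 13.5%, and for 0 in the other comparisons. All 12 had 95% intervals within 0.5 of 0 on the log2 scale in all 4 comparisons, as did 74% to 79.2% of all genes tested. *Slc2a1*, the glucose transporter of the blood-brain barrier, which astrocytes also express, was at 98.2 to 113.8 CPM in wt with a median of 105.4. Del/+ had 101.2, 108.6, 104.2 and 93.4 CPM, Dup/+ 97.4, 101.4, 98.0, 96.6 and 92.3 CPM, and Del/Dup 102.1, 98.8, 96.8 and 98.0 CPM. The values fell within a narrow band, and the log2 fold change in Dup/+ was -0.12 (95% interval -0.21 to -0.031, edgeR adjusted p = 0.409).

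*Cdh5*, the cadherin of endothelial junctions, was at 10.9 to 14.7 CPM in wt with a median of 11.9. Del/+ had 12.5, 14.4, 12.6 and 14.5 CPM, Dup/+ 12.3, 12.0, 10.6, 12.0 and 13.2 CPM, and Del/Dup 10.8, 12.1, 12.7 and 13.01 CPM. All groups overlapped, with a difference of 0.15 in Del/+ (95% interval -0.018 to 0.32). *Esam*, an adhesion molecule of the same junctions, was at 11.5 to 13.9 CPM in wt with a median of 12.2, at 13.1, 12.1, 12.1 and 11.7 CPM in Del/+, at 9.95, 11.8, 10.99, 11.8 and 12.3 CPM in Dup/+ and at 12.0, 12.2, 11.5 and 13.2 CPM in Del/Dup. Its difference in Dup/+ was -0.14 (95% interval -0.28 to -0.0045, edgeR adjusted p = 0.546).

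*Egfl7*, a secreted factor of endothelial cells, was at 8.20 to 9.93 CPM in wt with a median of 9.65. Del/+ had 10.9, 8.78, 9.03 and 10.8 CPM, Dup/+ 7.18, 10.2, 7.95, 7.70 and 9.42 CPM, and Del/Dup 8.97, 9.26, 9.23 and 9.87 CPM. It was 0.21 higher in Del/+ than in Dup/+ on the log2 scale (95% interval 0.0076 to 0.41, edgeR adjusted p = 0.354), with overlap between the groups.

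The VEGF receptor genes *Flt1* and *Kdr*, the angiopoietin receptor gene *Tek* and its relative *Tie1*, the TGF-beta coreceptor gene *Eng*, the clotting factor carrier gene *Vwf*, the barrier transporter gene *Slco1a4* and *Itm2a* had no unadjusted p under 0.05 in any comparison. *Flt1*, for example, was at 72.8 to 94.4 CPM in wt and 80.4 to 89.3 CPM in Dup/+, and *Vwf* at 40.6 to 62.4 CPM in wt and 48.0 to 53.9 CPM in Del/+. Over the 12 endothelial genes the median log2 fold change was 0.013 in Del/+, -0.041 in Dup/+ and -0.036 in Del/Dup.

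The members also differed in how much they varied between animals of 1 genotype. The SD of log2 CPM within groups was 0.070 for *Slc2a1*, 0.088 for *Col4a1* and 0.097 for *Tek*, below the median of 0.135 over all genes tested. It was 0.61 for *Igf2* and 0.69 for *Igfbp2*, larger than for 96.6% and 97.9% of genes. By role the median SD was 0.138 for endothelial genes, 0.143 for mural genes, 0.11 for the collagen IV chains and 0.238 for fibroblast and meningeal genes.

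Further genes were taken from lists that go beyond the 40. These lists are named by vessel and covering cells, but their genes are not all particular to those cells. Of 24 further endothelial genes tested, edgeR called 1: *Slc16a1*, a monocarboxylate transporter, at 56.2 to 69.0 CPM in Del/+ and 47.6 to 54.95 CPM in wt. Dup/+ had 47.3 to 50.5 CPM and Del/Dup 49.3 to 57.9 CPM. Its log2 fold change was 0.27 in Del/+ against wt (SE 0.0546, edgeR adjusted p = 0.0206) and 0.34 against Dup/+ (SE 0.0573, adjusted p = 0.00373), and the Del/+ libraries lay above all of wt and Dup/+. Over all genes, 0.771% and 0.784% were called in these comparisons, and 4.94% and 5.3% did not overlap. The calls of *Slc16a1* held in 25 and 28 of 29 alternative fits. With the term for multi-mapped share, which again rests on Del/+ replicate 4, its log2 fold changes were 0.20 and 0.27 and were not called. DESeq2 called *Slc16a1* in the same comparisons and also *Sox18*, lower in Del/Dup against wt, and *Abcg2* over the 4 groups; these and the other genes below that only DESeq2 called were picked out after their values were seen. Of 15 further mural genes, 17 further basement membrane genes and 39 further fibroblast and meningeal genes tested, none was called in any of these comparisons by edgeR. In Del/+ against wt, 1, 1 and 11 of them had an unadjusted p under 0.05, beside 18.4% of all genes, and in Del/Dup against wt 1, 1 and 11 did, beside 16.2%. The numbers were 2, 0 and 3 in Dup/+ against wt, beside 8.94% of all genes, and 2, 1 and 8 between Del/+ and Dup/+, beside 13.5%. DESeq2 called no gene of the mural list. It called *Col18a1* of the basement membrane list, lower in Del/+ than in Dup/+, and of the fibroblast list *Loxl1* and *Postn* in Del/+ and *Col5a1* in Del/Dup, both against wt, with *Col5a2* added over the 4 groups.

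Of 39 genes of signalling between vessel cells, edgeR called 1 in Del/Dup against wt (0.0907% of all genes were called) and 1 in Del/+ against Dup/+ (0.784%). *Vegfb*, a ligand of the *Flt1* receptor, lies on chromosome 1, which also carries the copy number change. It was at 16.6 to 18.8 CPM in wt and at 13.6, 12.2, 9.27 and 12.9 CPM in Del/Dup. Dup/+, at 12.5 to 15.97 CPM, also lay below all of wt (log2 fold change -0.31, edgeR adjusted p = 0.291, not called), and Del/+, at 13.6 to 18.9 CPM, overlapped it. The difference of Del/Dup from wt was -0.55 on the log2 scale (SE 0.101, edgeR adjusted p = 0.0455), and it was called in 11 of 29 alternative fits, whose adjusted p ran from 0.000412 to 0.461. Without Del/Dup replicate 4 it was -0.44, and a fit with the multi-mapped share is not read here, since all Del/Dup libraries were high in it and all wt libraries low. *Wnt7b*, a neural Wnt ligand that induces the barrier, was at 58.7 to 81.9 CPM in Del/+ and 88.9 to 101.4 CPM in Dup/+, a difference of -0.40 (SE 0.0913, edgeR adjusted p = 0.0427) that was also called in 11 of 29. Its adjusted p there ran from 0.00362 to 0.167, with an estimate of -0.31 without Del/+ replicate 4 and of -0.68 with the term for multi-mapped share, where that library alone stands for Del/+.

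Markers of other cells and regions were read in the same libraries. Red cell genes were higher in Dup/+, with a summed level of 182 to 247 CPM against 119 to 163 in wt, 105 to 165 in Del/+ and 134 to 165 in Del/Dup. Of 6 entries tested, 3 were called against wt in Dup/+, beside 0.272% of all genes. Among them was *Hbb*, the beta globin gene, at a log2 fold change of 0.76 (SE 0.156, edgeR adjusted p = 0.038), a call that held in 15 of 29 alternative fits. The 2 *Hba-a2* entries were called in 19 and 29 of 29. Between Del/+ and Dup/+, 3 of the 6 entries were called, beside 0.784% of all genes. All 6 were lower in Del/+ with an unadjusted p under 0.05, beside 13.5% of all genes. The globin genes have near-identical copies, so their separate counts are uncertain. Border macrophage genes, which include *Mrc1*, summed to 12.9 to 21.6 CPM over the 19 libraries, and 0 of 7 were called or had an unadjusted p under 0.05 in any comparison, nor did DESeq2 call any. Of 7 oligodendrocyte genes edgeR called 0 in Del/+ against wt, but 6 had an unadjusted p under 0.05 and DESeq2 called 5, all higher. Over all genes in that comparison, 18.4% had an unadjusted p under 0.05 and DESeq2 called 3.83%. These shares also stand beside the Del/+ counts below, and 1.19% beside the DESeq2 call in Del/Dup. The summed level of the oligodendrocyte genes was 6028 to 9033 CPM in Del/+ and 5114 to 6626 CPM in wt. The hippocampus list summed to 2444 to 2764 CPM in Del/+, below the 2800 to 3445 CPM of wt, while Dup/+ (2487 to 3428) and Del/Dup (2286 to 2964) overlapped wt. Of this sum, *Camk2a* alone averaged 1436 CPM in Del/+ and 1745 CPM in wt. The neuron list, which also holds *Camk2a*, summed to 7539 to 8450 CPM in Del/+ and 7832 to 8913 CPM in wt, with overlap. Of the 9 hippocampus genes tested edgeR called none, 8 had negative estimates in Del/+ and 4 had an unadjusted p under 0.05. DESeq2 called *Camk2a* lower in Del/+ and, of the neuron list, *Slc17a7* lower in Del/Dup. For genes of cortex, thalamus and hypothalamus, 5 of 5 tested had positive estimates in Del/+, where edgeR called none, 2 had an unadjusted p under 0.05 and DESeq2 called 1, *Slc17a6*. Microglia genes summed to 268 to 328 CPM in Del/+ and 322 to 340 CPM in wt, with 3 of 9 at an unadjusted p under 0.05. The part of these cells and regions, of depth and of the multi-mapped share in the members' values was not tested.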

How the data were processed

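Hippocampal RNA of 19 male rats was sequenced. The authors made libraries with a stranded total RNA kit; the labels describe both rRNA removal and polyA RNA. They aligned single-end reads with HISAT2 to Rno6 (rn6 in the submitters' processing notes) and counted them with HTSeq. Each deposited file holds the whole-number read counts of 1 library by Ensembl gene, not normalized; the setting for strand is not given in the sources used here. The summary lines for reads without a gene (6.94% to 16.1% of counted lines), ambiguous reads (0.142% to 0.334%) and multi-mapped reads were kept out of library sizes.

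Of 24345 genes with a read, 15440 passed filterByExpr. The test was edgeR's quasi-likelihood F (version 4.0.16, R 4.3.3) with TMM scaling, fitted once to the 19 libraries with a term for each group. A gene was called when its p, adjusted by Benjamini-Hochberg, was under 0.05. Adjusted p-values of the report are from this fit unless DESeq2 (1.42.0) is named. The prior count of fold changes was 2, with standard errors derived from the F statistic. CPM were computed on TMM-scaled library sizes. The comparisons share their wt, Del/+ and Dup/+ libraries. The script was tested on simulated data. Replicate pairs differed by more than counting noise; the common biological coefficient of variation was 0.101.

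The 40 members and all other lists were chosen with earlier results of these data known. Library values are given for members called and, within each role, for the 4 with the smallest p over the 4 groups; genes of other lists are named if called or if they mark a cell type. *Mapk3*, a gene of the interval, was chosen afterwards as a check. The 76 and 150 base stretches were read from RefSeq windows, which 24 of the 40 members had. Alternatives were other scalings, no filter, DESeq2, wt replicate 5 as Dup/+, a term for a multi-mapped share over 55%, *Ttr* as a covariate, only the groups compared, a replicate block, and each library left out. A fit without the 4 libraries highest in *Ttr* was added after the data had been seen.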

Additional observations from a re-analysis of the deposited data

Results flagged for a closer look

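In 12 of 136 combinations of a member and a genotype group, 1 library stood apart from the rest of its group by Dixon's ratio of the gap to the range at the 95% level. Chance alone flags about 1 in 20 groups.

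Del/+ replicate 3 was apart in 4 members. *Igf2* was at 78.18 CPM against 18.66 to 22.63 in the other 3 Del/+ libraries, *Igfbp2* at 35.77 against 7.391 to 10.31, *Mgp* at 5.764 against 4.348 to 4.542, and *Tie1* at 15.42 against 16.33 to 16.47, the last being low and close to the others in size. This library also had the highest *Ttr*, 1126 CPM, and the part of choroid plexus in these values was not tested.

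In wt replicate 4, 3 vessel genes were low: *Vwf* at 40.62 CPM against 54.97 to 62.4 in the other 5 wt libraries, *Pdgfrb* at 37.51 against 43.19 to 46.28, and *Abcc9* at 14.8 against 18.56 to 19.92. Its summed level over the members, 774.6 CPM, was the lowest of the 19. Without this library 0 members were called in each comparison against wt, as with it.

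*Col1a1* was high in wt replicate 5 (17.84 CPM against 10.14 to 12.34), whose label fields disagree on genotype, and in Dup/+ replicate 3 (15.29 against 7.813 to 9.621). *Tek* was at 30.93 CPM in Del/+ replicate 2 against 28.61 to 29 in the others, *Col3a1* at 5.542 CPM in Dup/+ replicate 4 against 6.109 to 6.273, and *Lama2* at 19.3 CPM in Del/Dup replicate 2 against 15.59 to 15.93.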

How the results depend on the processing

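Over 10 alternatives and the 19 fits that left out 1 library, 0 members were called in Dup/+ against wt and in Del/Dup against wt. In Del/+ against wt the count was 0 in every fit that left out 1 library, but 2 with DESeq2 and 2 without the 4 libraries highest in *Ttr* (*Acta2* and *Notch3* each time), and 1 with only the groups compared (*Dcn*, 0.39, adjusted p = 0.0223). That omission of 4 libraries was chosen after seeing the data. Over the 4 groups jointly the count was 0, or 1 (*Dcn*) with DESeq2; leaving out 1 library gave 0 to 1, the 1 being *Dcn* without Dup/+ replicate 3.

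The single call between Del/+ and Dup/+, *Dcn*, fell to 0 with a term for multi-mapped share, where Del/+ rests on replicate 4 alone, with only the groups compared (0.64, adjusted p = 0.101), without the 4 libraries highest in *Ttr* (0.53, adjusted p = 0.125) and with the replicate block; leaving out 1 library gave 0 to 1, with 0 without Del/+ replicate 3, Dup/+ replicate 2 or Dup/+ replicate 5. With wt replicate 5 counted as Dup/+ it remained called (0.59, adjusted p = 0.0411). Its estimate stayed between 0.52 and 0.77 in all 29 alternatives. The cause was not tested.

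Replicate numbers did not pair the samples: deviations of same-numbered libraries correlated at -0.172 to 0.122 over 24 pairs, with 1 pair over 0.1. With the replicate block, *Dcn* was at 0.63 (adjusted p = 0.0598), 0 members were called between Del/+ and Dup/+, and the counts against wt stayed at 0. For 26 single-gene results on members and on *Slc16a1*, *Vegfb* and *Wnt7b*, 754 values under the alternatives were followed, of which 701 kept their side of the threshold, 48 lost it and 5 gained it, with no call reversed in sign. Most of the 701 were of results not called in the main fit. All 48 losses fell on its calls: of 29 alternatives, *Dcn* kept its call in 22, *Slc16a1* in 25 and 28, *Vegfb* in 11 and *Wnt7b* in 11. Red cell and choroid plexus genes are not among these 26 and also lost calls: *Hbb* in Dup/+ against wt was called in 15 of 29, *Alas2* between Del/+ and Dup/+ in 14 and *Calml4* between them in 25, while *Alas2* in Dup/+ against wt, not called in the report, was called in 4. The number of libraries per group, 4 to 6, and the 37 reads of the thinnest member in its shallowest library limit what could be detected. Over all genes, the number called moved far more: from 119 to between 46 and 591 in Del/+ against wt, from 42 to between 12 and 80 in Dup/+ against wt, from 14 to between 2 and 216 in Del/Dup against wt, from 121 to between 51 and 256 between Del/+ and Dup/+, and from 127 to between 60 and 710 over the 4 groups.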
